A study of Mus musculus with 12 samples.

Results

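Stretches of the mouse genome far from any protein-coding gene whose CpGs were neither nearly empty nor nearly full of methylation were examined in the heart. They were chosen by 3 limits. A stretch was a 500 bp tile of an autosome with at least 3 CpG positions measured in all 12 animals, every measured position lay over 10 kb from a protein-coding gene, and the mean level over the 12 animals was 20 to 80%. Of 38449 tiles with 3 or more sites, 7948 were that far from genes, and 2722 of these (34.2% of the distal tiles, 7.08% of all tiles) met the limit on the level. They held 12107 sites. Of all 7948 distal tiles, 54.0% lay above 80% and 11.8% below 20%.

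The samples were left ventricles of 12 FVB/N mice taken at weaning, 3 weeks after birth, and methylation was read by reduced representation bisulfite sequencing (RRBS), in which the enzyme MspI cuts at CCGG and bisulfite marks the cytosines that carry no methyl group. The mothers were wild-type females fed high-fat chow (HFD) or regular chow (RD) from 6 weeks of age. They were mated after 8 weeks on it to RD-fed males of their own age, and the question was how maternal obesity acts on the offspring heart. The offspring of HFD mothers were 3 females (numbered 2, 3 and 4) and 3 males (2, 3 and 4), and those of RD mothers were 4 females (1 to 4) and 2 males (1 and 2). The number of mothers is not given in the labels, so litter mates may be among them, and the p-values measure the spread between these 12 animals. The libraries numbered 2 to 8 were HFD and those numbered 9 to 14 were RD, so the diet and the order of the libraries cannot be told apart.

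In mammals most CpGs outside genes are methylated, and the fully unmethylated ones cluster in CpG islands. A level in between arises in several known ways: cells of a tissue can differ from each other, the parental alleles can differ, as at imprinted loci, an enhancer bound by transcription factors can lose part of its methylation, and the many copies of a repeated sequence can differ. In bulk tissue a percentage does not separate these, and a change in the proportions of cell types cannot be told apart from a change within cells. The ribosomal RNA genes, repeated in long arrays, are a textbook case of a family with methylated and unmethylated copies.

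No genome sequence was at hand for the tiles as a whole, but 38 reference promoter windows (250 bases before to 50 bases after a start site, RefSeq, GRCm38.p6), of 37 long non-coding RNA (lncRNA) genes, held sites of these tiles. They are shown to make visible which CpGs stand behind the level of such a tile. The windows held a median of 8 CpGs, and all promoter windows one of 7, and the 4 shown held 16, 13, 15 and 6. The first pair has the most measured sites (1700017J07Rik, not shown, had as many as Gm36234) and the second pair the smallest diet p of a tile, a choice made after the values were seen. Capitals mark the CpGs that were measured, each window is printed 5′ to 3′ along its gene, and CpGs in lower case were not among the sites of the tile.
Gm33022, chr14:19311640-19311939, minus strand: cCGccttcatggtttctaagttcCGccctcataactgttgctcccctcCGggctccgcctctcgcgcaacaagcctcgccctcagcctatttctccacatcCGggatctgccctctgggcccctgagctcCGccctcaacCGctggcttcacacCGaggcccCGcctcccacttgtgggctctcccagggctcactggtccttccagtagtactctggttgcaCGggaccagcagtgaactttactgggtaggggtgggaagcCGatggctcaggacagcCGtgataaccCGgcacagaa
Gm36234, chr7:35923044-35923343, minus strand: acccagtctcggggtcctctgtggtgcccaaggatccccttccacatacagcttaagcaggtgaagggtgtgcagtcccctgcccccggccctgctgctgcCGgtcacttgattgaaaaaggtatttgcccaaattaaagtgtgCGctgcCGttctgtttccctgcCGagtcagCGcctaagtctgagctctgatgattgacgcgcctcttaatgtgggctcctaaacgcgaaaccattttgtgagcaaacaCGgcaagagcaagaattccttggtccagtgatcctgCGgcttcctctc
Gm29638, chr7:12949735-12950034, plus strand: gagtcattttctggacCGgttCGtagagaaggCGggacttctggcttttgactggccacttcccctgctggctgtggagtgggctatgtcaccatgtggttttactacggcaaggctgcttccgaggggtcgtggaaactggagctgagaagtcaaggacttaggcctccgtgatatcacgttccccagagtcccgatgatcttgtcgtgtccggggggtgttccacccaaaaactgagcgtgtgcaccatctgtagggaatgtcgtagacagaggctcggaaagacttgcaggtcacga
Gm3787, chr15:77376863-77377162, minus strand: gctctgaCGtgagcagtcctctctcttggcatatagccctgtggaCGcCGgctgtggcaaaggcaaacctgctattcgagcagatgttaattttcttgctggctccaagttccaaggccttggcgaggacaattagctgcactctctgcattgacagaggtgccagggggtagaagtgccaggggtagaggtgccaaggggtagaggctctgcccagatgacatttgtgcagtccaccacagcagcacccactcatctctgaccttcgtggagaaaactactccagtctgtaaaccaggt

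In the Gm33022 window 12 of 16 CpGs carried 13 measured sites, from 39.4% to 77.3%, with a mean of 61.3% ± 5.89 (SD, n = 6) in HFD and 59.1% ± 5.65 (n = 6) in RD offspring. Its tile differed by 2.14 percentage points between the diets (limma, adjusted p = 0.961). The 7 measured CpGs of Gm36234, of 13 in the window, ranged from 34.5% to 59.4%, and the window stood at 48.3% ± 2.55 in HFD and 45.4% ± 2.70 in RD. The 3 measured CpGs of Gm29638 lay together at the far end of the window from the start site. They averaged 28.5, 29.5 and 38.2% in HFD females 2, 3 and 4, 26.5, 35.4 and 19.7% in HFD males 2, 3 and 4, 53.7, 33.9, 44.9 and 42.6% in RD females 1 to 4, and 37.6 and 40.8% in RD males 1 and 2. The diets overlapped there through HFD female 4 and HFD male 3 on one side and RD female 2 and RD male 1 on the other, and the difference of 12.6 points, lower in HFD, had an adjusted p of 0.426 (limma). In the Gm3787 window the level was 23.8% ± 8.09 in HFD and 34.1% ± 4.87 in RD (adjusted p = 0.361). The MspI site CCGG, read on both strands, was present in 37 of the 38 windows (97.4%), against 52.8% of the 32851 promoter windows of the same length. The 38 were picked for holding measured sites, which RRBS reads close to CCGG, and the 32851 include windows without any. The excess therefore follows from the method and describes no trait of these tiles. Of 44452 deposited sites that fell in any promoter window, 99.98% sat on a CG of the reference.

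The rule fixed the levels of the tiles, so they are given as a description only. The median tile stood at 63.4% (quartiles 46.7 and 74.1%), and 988 tiles (36.3%) lay between 70 and 80%, the fullest of the 10-point bins. Just inside the lower limit were the tiles at chr8:124960593-124960752 (20.04%) and chr2:27802724-27802774 (20.05%), and just outside it chr11:95541150-95541209 (19.91%) and chr1:131003551-131003578 (19.87%). At the upper limit, chr12:108292271-108292311 and chr11:73629028-73629119 were inside at 79.99% each, and chr6:140192673-140192746 was outside at 80.004%, as was chr6:124475122-124475278 at 80.01%. At the limit of distance, tiles 10.02 kb from Gpr132 and from Arhgef10l were inside, and tiles 9.993 kb from Nfatc2 and 9.985 kb from Acp6 were outside. A tile held a median of 4 sites, 1287 tiles (47.3%) held exactly 3 and 64 held 10 or more. The median distance to the nearest protein-coding gene was 51.8 kb. The tile farthest from one, chr1:113816012-113816377, lay 1868 kb from Cntnap5a and had a level of 61.2%. The next were chr5:55952598-55952622, 1764 kb from Pcdh7, at 78.0%, and chr2:99371693-99371849, 1740 kb from Lrrc4c, at 79.2%.

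Distance went with the level. Of distal tiles 10 to 20 kb from a gene, 38.1% were intermediate and 44.4% above 80%, and beyond 500 kb 22.4% were intermediate and 76.3% above 80%. Within the chosen tiles the median level was 59.1% in the nearest of these bins and 72.8% in the farthest. The word intergenic holds for protein-coding genes only. A site lay inside a lncRNA gene in 518 tiles (19.03%), inside an annotated pseudogene in 85, and within 1 kb of an end of a non-coding RNA gene in 219. Of the tiles, 2105 (77.3%) lay in no annotated gene.

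Most tiles held a site outside the range beside sites within it, and 72.3% of all sites of the chosen tiles were at 20 to 80%. All sites of a tile were at 20 to 80% in 1067 tiles (39.2%). In 1398 (51.4%) the sites outside the range lay on 1 side of it, beside others within it. In 257 (9.44%) a site under 20% stood beside a site over 80%, and in 115 (4.22%) no site at all was at 20 to 80%. Here and below, a tile called near a gene has it as its nearest protein-coding gene, at any distance over 10 kb (median 51.8 kb over the chosen tiles). The extremes were the tile at chr12:105992176-105992211 near Vrk1, whose 3 sites ranged from 0 to 97.3% around a mean of 64.8%, and the tile at chr2:169505157-169505183 near Tshz2, a zinc finger transcription factor gene, with sites from 0 to 98.2%. At the other end, the 3 sites at chr2:108421003-108421042 near Mettl15 all averaged 64.3% over the 12 mice, though 61.0, 65.5 and 64.3% in HFD and 67.6, 63.0 and 64.3% in RD, and the 3 at chr16:34590954-34590986 near Kalrn ranged from 71.95 to 72.24%.

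The diet of the mother left 1 of the 2722 tiles past the threshold: chr6:72277097-72277164, in no annotated gene, 27.4 kb from Sftpb, which encodes a surfactant protein of the lung. Over all 23791 tiles tested, 0.0294% were called (limma with diet and sex as terms, Benjamini-Hochberg adjusted p under 0.05). Its level in HFD females 2, 3 and 4 was 43.7, 41.7 and 29.4%, and in HFD males 2, 3 and 4 it was 40.8, 42.2 and 32.3%. In RD females 1 to 4 it was 60.8, 66.3, 69.2 and 62.2%, and in RD males 1 and 2 it was 73.7 and 74.8%. All HFD offspring lay below all RD offspring, with 17.1 points between the closest mice. The means were 38.3% ± 5.97 (SD, n = 6) and 67.8% ± 5.80 (n = 6), a difference of -1.66 ± 0.18 (SE) on the log2 ratio scale (adjusted p = 0.00454). Each of its 4 sites showed the difference: 35.1 against 67.0%, 42.4 against 71.3%, 34.3 against 60.8% and 41.6 against 72.2%, in the order along the chromosome. Within females alone the adjusted p was 0.209 and within males 0.067 (limma), and the interaction of diet with sex had an adjusted p of 0.987.

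No other chosen tile passed the threshold for diet. At an unadjusted p under 0.05 there were 225 tiles, 8.27% of the set against 7.81% of all tiles tested, 144 of them lower in HFD (4.64% of all tested tiles had such a p and were lower) and 81 higher. The median difference between the diets was -0.37 points over the chosen tiles and -0.18 over all tested tiles, and 54.9% of the chosen tiles were lower in HFD against 53.3% of all. In 14 tiles every HFD mouse was below every RD mouse, 0.514% of the set, where 0.467% of all tested tiles were; in 5 every HFD mouse was above (0.184%, where 0.16% of all tested tiles were). With any 1 mouse left out these counts were 15 to 25 and 7 to 11, as fewer mice leave more room between the groups. Means apart by over 10 points were seen in 65 tiles (2.39%, against 1.31% of all), 47 of them lower in HFD, as were 226 of the 311 such tiles among all tested. Means apart by over 20 points were seen in 3 tiles, all lower in HFD (0.063% of all tested tiles).

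**Figure D1:**
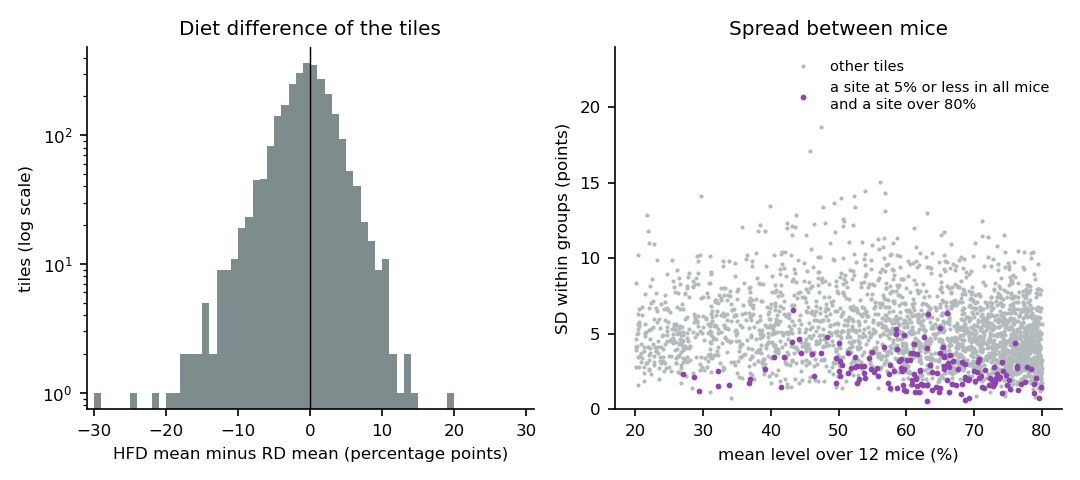
Left, number of tiles (log scale) by the difference between the means of the 6 HFD and the 6 RD mice, in percentage points, for the 2722 distal intermediate tiles. Right, each tile's mean level over 12 mice against its SD within the 4 groups of diet and sex, with the 166 tiles that mix a site at 5% or less in all mice and a site over 80% in purple. The left tail reaches past -20 points in 3 tiles and the right tail does not reach 20, and the purple tiles lie low, with a median SD of 2.39 points.

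The averages per mouse were close together. Over all chosen tiles the mean level was 58.6 to 59.3% in the 6 HFD mice and 59.0 to 60.0% in the 6 RD mice, with medians of 58.9 and 59.4%. The groups overlapped, and the means of the groups differed by 0.53 points. The highest mice were RD male 2 (59.95%), RD female 1 (59.86%) and RD female 2 (59.64%). The same mice had the highest means over all tested tiles, at 65.6, 65.8 and 65.2%, where the other 9 lay between 64.6 and 65.1%. Intermediate tiles up to 1 kb from the ends of protein-coding genes differed by -0.88 points (892 tiles) and those inside gene bodies by -0.86 points (4593 tiles), with 55.8 and 56.9% of tiles lower in HFD. Whether these sets differ from the distal tiles was not tested.

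Of the other tiles with the smallest diet p, none passed the threshold with all 12 mice. The tile at chr12:17440354-17440428, inside the lncRNA gene Gm36752 and 10.3 kb from Nol10, which encodes a nucleolar protein, had 13.9, 18.3 and 15.1% in HFD females 2, 3 and 4 and 16.6, 14.6 and 17.6% in the HFD males. The RD females 1 to 4 had 30.7, 28.5, 26.7 and 20.3% and the RD males 27.0 and 34.3%. The diets did not overlap there, and RD female 4 was the RD mouse nearest to the HFD range. The means were 16.0% ± 1.77 and 27.9% ± 4.67 (limma, adjusted p = 0.068, and 0.0281 without RD female 4). Its 4 sites each stood lower in HFD, by 8.23 points at the least and 15.003 at the most.

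Near Foxo1, a forkhead transcription factor that insulin signalling keeps out of the nucleus, the tile at chr3:52393548-52393580 had 29.6 to 38.8% (median 33.8%) in HFD and 40.4 to 53.4% (median 48.6%) in RD. All HFD mice were below all RD mice, with means of 33.8% ± 3.13 and 47.3% ± 5.70 (adjusted p = 0.189). The tile at chr8:120206091-120206150, inside the lncRNA gene A330074K22Rik near Gse1, stood at 49.6% ± 11.1 and 69.4% ± 10.2 (adjusted p = 0.131). Its diets overlapped, and HFD female 4 was apart from the other HFD mice at 28.7%. The tile near Copg1, a subunit of the coat of transport vesicles, at chr6:87876357-87876426, had 19.2% ± 2.05 and 31.3% ± 5.99 (adjusted p = 0.206). The tile near Ccr7, a chemokine receptor of lymphocytes, at chr11:99120605-99120659, had 17.9% ± 3.33 and 26.2% ± 1.67 (adjusted p = 0.240). In both of these the diets did not overlap.

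Higher levels in HFD were seen in 3 of the 10 tiles. At chr18:68692099-68692154, inside the lncRNA gene Gm30821 and 263 kb from Mc2r, the receptor for corticotropin, the HFD mice had 42.7 to 56.1% and the RD mice 18.9 to 41.5%. They did not overlap, with means of 48.2% ± 5.87 and 28.9% ± 8.44 over 7 sites (limma, adjusted p = 0.206). At chr11:53222933-53222993 near Fstl4, a follistatin-like gene, HFD stood at 66.1% ± 3.32 and RD at 54.8% ± 4.11, again with no overlap (adjusted p = 0.240). At chr16:69096566-69096637, 760 kb from Speer2, the means were 77.1% ± 6.77 and 67.4% ± 5.06, and the diets overlapped. The last of the 10, chr11:32869320-32869387 near Smim23, had 62.6% ± 3.03 in HFD and 72.4% ± 3.94 in RD.

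**Figure D2:**
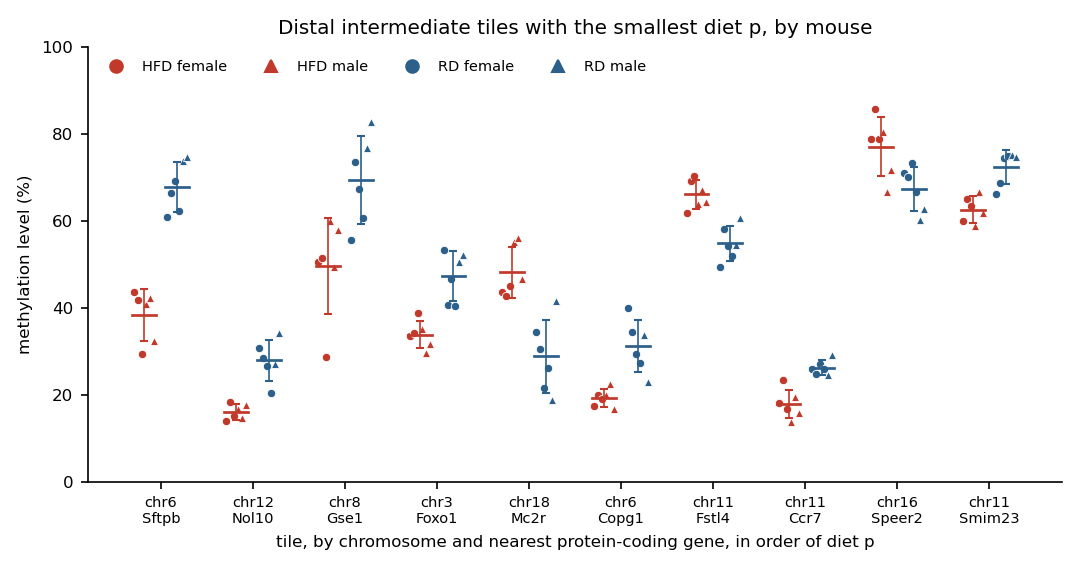
Methylation level (%) of each of the 12 mice in the 10 distal intermediate tiles with the smallest diet p, named by chromosome and nearest protein-coding gene; circles are females, triangles males, horizontal lines the means and bars the SD of each diet (n = 6). In the leftmost tile, the only one past the threshold, the HFD mice lie between 29.4 and 43.7% and the RD mice between 60.8 and 74.8%.

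Tiles whose nearest protein-coding gene was a regulator of the heart, of vessels or of growth were followed as lists. The nearest gene names a position and not a target. Of 31 cardiac transcription factors, 14 had a chosen tile nearest to them, 30 tiles in all, among them Irx5 with 5, Irx1 with 4 and Meis1, Nr2f2 and Tbx3 with 3 each. None was called, 14 of the 30 were lower in HFD (46.7%), and 1 had an unadjusted p under 0.05 (limma, 3.33%, against 7.81% of all tiles tested). That tile, chr5:119502138-119502348, lay 168 kb from Tbx3, a repressor needed for the cardiac conduction system. It had 77.9, 62.5 and 52.3% in HFD females 2, 3 and 4, 79.4, 85.2 and 83.3% in the HFD males, 81.3, 80.5, 80.01 and 81.2% in RD females 1 to 4 and 84.1 and 91.8% in the RD males. The lowest mice were the HFD females 3 and 4, while the HFD males lay next to or among the RD mice (adjusted p = 0.389). The next of the list, chr2:116156320-116156346 near Meis2, had 80.2% ± 8.28 in HFD and 71.4% ± 7.74 in RD (adjusted p = 0.653).

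Of 19 endothelial and vascular regulators, 6 had 10 tiles, 5 of them lower in HFD, none called and 1 with an unadjusted p under 0.05 (limma, 10%, against 7.81% of all tiles tested). The tile near Kdr, the main receptor for vascular endothelial growth factor, at chr5:76002295-76002347, had 18.8 to 34.7% (median 27.9%) in HFD and 20.8 to 50.5% (median 38.9%) in RD. The groups overlapped, with means of 26.8% ± 6.98 and 38.4% ± 11.2 (limma, adjusted p = 0.615). Near Cdh5, the cadherin of endothelial junctions, the tile at chr8:104039652-104039706 stood at 17.4% ± 4.69 and 24.6% ± 7.76 (adjusted p = 0.655), and RD female 1 was apart at 39.9%. Of 8 listed endothelial markers, 2 had at least 3 sites at their ends, Tie1 (27.9% in HFD, 37.7% in RD) and Esam (19.5 and 35.0%), and their average was 18.6 to 26.4% in the HFD and 28.2 to 42.1% in the RD mice. Of 10 cardiomyocyte markers 4 were measured, averaging 28.7 to 33.7% in HFD and 29.5 to 33.4% in RD. Of 5 smooth muscle and pericyte markers 2 were, averaging 5.30 to 10.2% and 2.07 to 9.73%, and of the fibroblast and immune markers 0 were. The marker levels were not tested, and the part of cell type proportions in the differences between the diets was not tested.

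Of 19 growth and metabolic regulators, 7 had 10 tiles, 7 of them lower in HFD, none called and 2 with an unadjusted p under 0.05 (limma, 20%, against 7.81% of all tiles tested). These were the Foxo1 tile above and chr8:10854162-10854354, inside the lncRNA gene Gm39130 and 130 kb from Irs2, an adaptor of the insulin receptor, with 54.0% ± 5.18 in HFD and 60.3% ± 3.40 in RD (adjusted p = 0.623). The median difference of the list was -2.80 points, against -0.37 for all chosen tiles. Of imprinted loci, where the parental alleles differ in methylation, those at H19, Dlk1 to Meg3 and Rasgrf1 were looked up. A single tile lay at H19, the maternally expressed lncRNA beside Igf2, at chr7:142575795-142575863 inside the gene. Its level was 72.8 to 79.4% in HFD and 73.6 to 78.8% in RD, with means of 76.7% ± 2.64 and 75.5% ± 1.87. No chosen tile lay at Dlk1 to Meg3 or had Rasgrf1 as its nearest protein-coding gene.

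Most tiles stood alone: 2501 had no other chosen tile within 2 kb, 97 pairs and 5 groups of 3 lay closer, and there was 1 group of 12. The group of 12, chr17:39843014-39848822, covered 5809 bp on both sides of and across Rn18s-rs5 (chr17:39846354-39848202), an annotated pseudogene related to the 18S ribosomal RNA, and ended within the lncRNA gene AY036118. With 709 sites it made up 5.86% of all sites of the chosen tiles, though 0.441% of the tiles, and it held the tile with the most sites, 92 at chr17:39844001-39844499. Ribosomal RNA genes are present in the genome in many near-identical copies, and the deposited percentages do not say from which copy a read came. The 12 tiles had levels of 35.8 to 57.1%, and 653 of the 709 sites (92.1%) were themselves at 20 to 80%, against 72.3% of all sites of the chosen tiles.

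The mean over the 12 tiles was 41.7, 38.3 and 39.8% in HFD females 2, 3 and 4 and 46.3, 43.1 and 49.4% in HFD males 2, 3 and 4. It was 46.8, 44.8, 45.4 and 42.4% in RD females 1 to 4 and 42.7 and 49.9% in RD males 1 and 2. The HFD females were the lowest mice, while the HFD males spread over the RD range. By diet the means were 43.1% ± 4.14 and 45.3% ± 2.78 (n = 6 each), 8 of the 12 tiles were lower in HFD, and the smallest adjusted p of a tile was 0.473 (limma). HFD female 3 was among the lowest pair of mice in all 12 tiles and the highest pair included RD male 2 in 9 and HFD male 4 in 8. The tiles of the group thus moved together from mouse to mouse: deviations from the group means of neighbouring tiles correlated with r of 0.342 to 0.926 (median 0.678, 11 pairs over the same 12 libraries), against a median of 0.077 over the 107 other pairs of chosen tiles within 2 kb. The tiles of the group averaged 29 to 92 sites each, where the median chosen tile held 4. The part of the number of sites in this contrast was not tested.

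**Figure D3:**
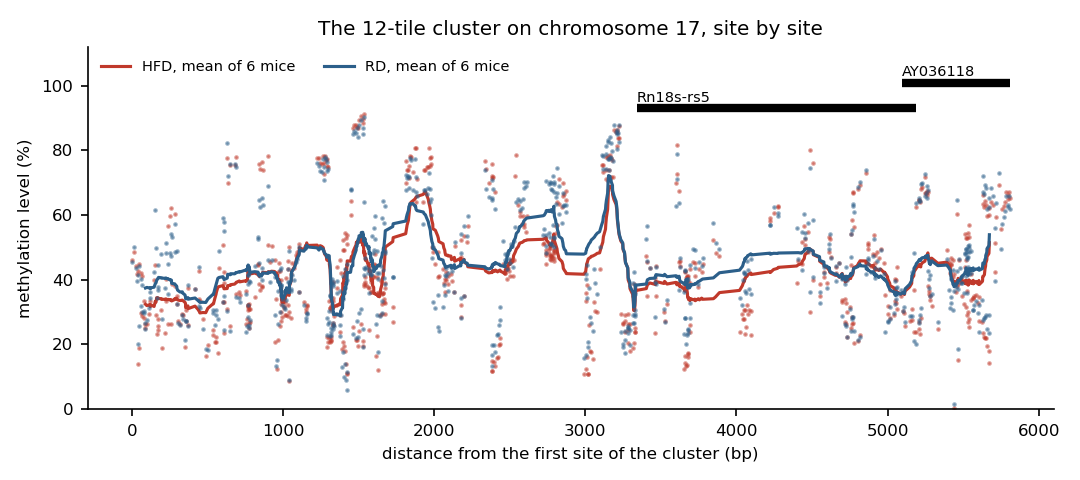
Methylation level (%) at the 709 sites of the 12-tile group on chromosome 17 against the distance from its first site (bp); points are means of the 6 HFD (red) and the 6 RD (blue) mice, lines are running means over 31 neighbouring sites, and black bars mark the annotated genes, AY036118 running on beyond the last site. The curves cross repeatedly, and the tile means lie between 35.8 and 57.1%.

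The only single site of the chosen tiles that passed the threshold was in this group, 1.68 kb before the annotated start of Rn18s-rs5. Of 11592 of their sites tested 1 was called, and of all 157524 sites tested 0.0102% were. At chr17 position 39844678 the level was 42.7, 35.2 and 32.8% in HFD females 2, 3 and 4, 37.9, 31.7 and 34.4% in the HFD males, 67.9, 63.4, 58.7 and 61.4% in RD females 1 to 4, and 70.3 and 65.3% in the RD males. The diets were apart by 16.0 points at the closest, with means of 35.8% ± 3.98 and 64.5% ± 4.26 (limma, adjusted p = 0.0410). The call was lost with any 1 mouse left out (adjusted p of 0.0613 to 0.204), with a smaller offset in the ratio and where missing values were allowed. Within the group, 115 of 708 sites tested had an unadjusted p under 0.05 (16.2%, against 6.53% of all sites), 88 of them lower in HFD; neighbouring sites share reads and are not independent. In the opposite direction, position 39843971 had 24.5 to 43.8% in HFD and 12.1 to 15.1% in RD, with means of 33.9% ± 8.55 and 13.4% ± 1.34 and no overlap (adjusted p = 0.104).

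At the called site the diets were apart in one of the rows of the CpG and overlapped in the other. The table lists both cytosines of some CpGs, as rows 1 bp apart, and the called site is the second row of such a pair. For the 5 CpGs from position 39844670 to 39844691 the second rows differed between the diets by -23.5, -28.7, -24.4, -25.4 and -19.6 points, with no overlap at any of them. The first rows of the same CpGs were also lower in HFD, but by less, with -0.57, -7.01, -6.63, -9.42 and -5.73 points, and the diets overlapped at all 5. In the HFD mice the rows of the called CpG stood at 36.1% ± 5.64 and 35.8% ± 3.98, and in the RD mice at 43.1% ± 11.4 and 64.5% ± 4.26. At the second rows of the 5 CpGs with both rows just before these, positions 39844621 to 39844660, the diets differed by -8.09 to -4.71 points, and at their first rows by -11.9 to 0.39. In a CpG the lower position is the cytosine of the plus strand and the next that of the minus strand, so the called site is a minus strand row. These pairs were singled out after the site's values had been seen.

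The called CpG was not the only place of this kind. Of the 194 pairs in the group, 31 had rows whose diet differences were over 15 points apart, and in 27 of these the second row was the one lower in HFD relative to the first. The longest such stretch, singled out after its values were seen, was 10 CpGs from position 39845756 to 39845810. There the second rows averaged 52.3, 45.2 and 38.9% in HFD females 2, 3 and 4, 51.3, 43.9 and 54.8% in the HFD males, 79.8, 74.5, 65.2 and 58.2% in RD females 1 to 4 and 60.3 and 79.4% in the RD males. All HFD mice were below all RD mice, with means of 47.7% ± 6.05 and 69.6% ± 9.59, while the first rows stood at 48.7% ± 7.05 and 52.8% ± 7.73. None of these second rows was called (limma, adjusted p of 0.383 to 0.426).

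The levels of the rows were often unequal in this group as well. Over its 194 pairs they differed by a median of 12.6 points, and by over 20 points in 72. Over the 149 pairs in the other chosen tiles the median was 3.37 points, with 13 pairs over 20, and over the 2897 pairs outside the group in the whole table it was 1.45 points, with 36. Averaging such rows before the test left 1 tile called for diet. What makes the rows differ was not tested.

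**Figure D4:**
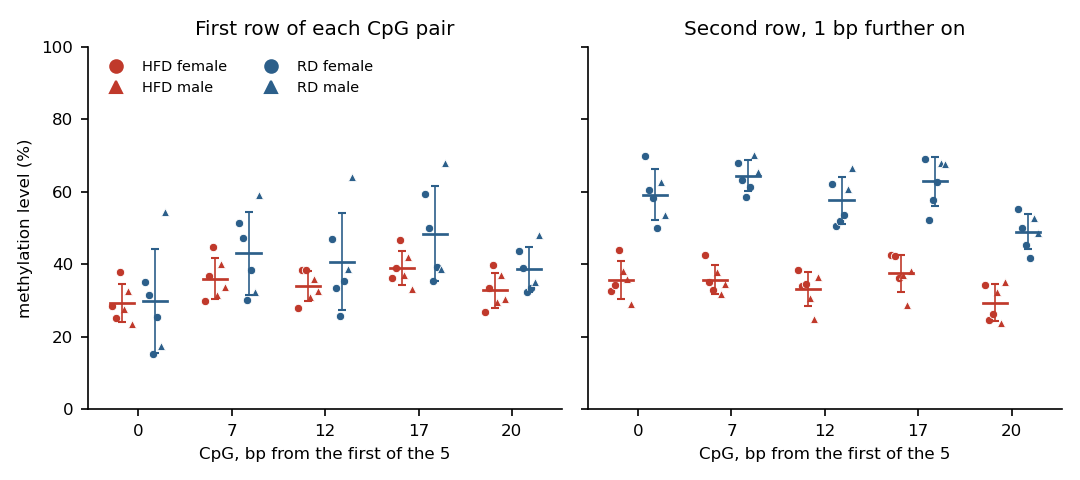
Methylation level (%) of the 12 mice at the 5 neighbouring CpGs around the called site, at the first row of each CpG pair (left) and at the second row, 1 bp further on (right), with the distance from the first CpG in bp; circles are females, triangles males, lines and bars the mean and SD of each diet (n = 6). On the right the diets are apart at every CpG, by 19.6 to 28.7 points in their means, and on the left they overlap at every CpG.

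Of the 5 groups of 3 neighbours, the first pair by number of sites mixed directions. The 3 tiles from chr15:85613582-85613764 on, near Wnt7b, a secreted signalling protein, had HFD minus RD differences of -5.11, 4.52 and -4.77 points, and the 3 near the olfactory receptor gene Olfr31 on chromosome 14 had 0.38, -2.48 and -0.08 points. In 1 of the 5, near Rpn1 on chromosome 6, all 3 tiles were higher in HFD, with means of 54.9% ± 3.00 and 50.8% ± 4.29 over the group and a smallest adjusted p of a tile of 0.792 (limma). It was named after its values were seen. The second Wnt7b tile held 1 low mouse, HFD female 3 at 27.2%, where the other HFD mice had 36.0 to 38.9%.

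Mice of the same diet and sex differed by a median SD of 4.65 points in a tile, with 0.544 at the least and 18.7 at the most, and 91 tiles were over 10. The most variable tile was chr12:69422868-69422941, 46.9 kb from Arf6, a small GTPase of membrane traffic. It had 21.1, 54.8 and 50% in HFD females 2, 3 and 4, 20.2, 35.2 and 30% in the HFD males, 75.8, 77.0, 60.2 and 50% in RD females 1 to 4 and 20.02 and 74.9% in the RD males. The RD mice alone covered the whole range, with RD male 1 the lowest of all and RD females 1 and 2 and RD male 2 the highest. Its diets stood at 35.2% ± 14.5 and 59.7% ± 22.2 (limma, adjusted p = 0.586), and its 4 sites had mean levels of 40.4 to 50.1%.

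The second, chr5:95974005-95974108, inside Gm7993 and 12.9 kb from Cxcl13, a chemokine for B cells, rested on 16 sites. The same 3 RD mice were high there, RD females 1 and 2 at 79.2 and 70.3% and RD male 2 at 73.5%, while RD females 3 and 4 and RD male 1 had 35.3, 36.0 and 35.2% and the HFD mice 26.0 to 49.96%. The means of the diets were 36.7% ± 10.03 and 54.9% ± 21.5 (adjusted p = 0.599). In the adjoining tile, chr5:95973949-95973999, with 8 sites, the high mice were RD female 1 (81.0%), RD female 3 (77.1%), HFD male 4 (72.4%) and RD male 2 (67.1%). The third most variable tile, chr7:130000695-130000759 near Fgfr2, a receptor of fibroblast growth factors, showed other mice at the top, HFD female 3 at 72.9% and HFD male 2 at 72.4%, and RD female 1 and HFD male 3 lowest at 34.4 and 36.8%. RD females 1 and 2 and RD male 2 were the 3 highest mice in 36 of the 2722 tiles (1.32%), more than any other of the 220 possible sets of 3, and in 1.22% of all tested tiles. These are also the mice with the highest means over all tiles.

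Of the 3 least variable tiles, the first pair mixed nearly empty with nearly full sites. At chr15:37089534-37089567 the 12 mice lay between 61.4 and 64.5%, and its 3 sites stood at 96.4, 0 and 92.8%. At chr11:51150511-51150550 the mice lay between 67.3 and 70.1%, with 5 of the 7 sites at 94.0 to 97.2% and the other 2 at 1.02 and 0%. At chr2:33967112-33967346, inside Gm13404 and 79.2 kb from Mvb12b, the mice lay between 33.1 and 35.3% and the 5 sites between 11.1 and 51.3%. In all, 166 chosen tiles (6.10%) held a site at 5% or less in every mouse and a site over 80%, and in 125 of these the remaining sites averaged over 80%. Their median SD within groups was 2.39 points, against 4.85 in the other tiles, and they made up 61 of the 152 tiles with an SD under 2. Of their diet differences, 84 were lower in HFD (50.6%, against 53.3% of all tested tiles) and 1 had an unadjusted p under 0.05 (limma, 0.602%, against 7.81%). Among all sites of the chosen tiles, 131 (1.08%) were listed at 0 in all 12 mice. The mice were FVB/N and the reference is C57BL/6J, and whether these positions are CpGs in FVB/N was not tested. With sites at 5% or less in every mouse left out before the mean was taken, 2560 tiles met the rule, and 14 and 5 of them had diets that did not overlap, as before.

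**Figure D5:**
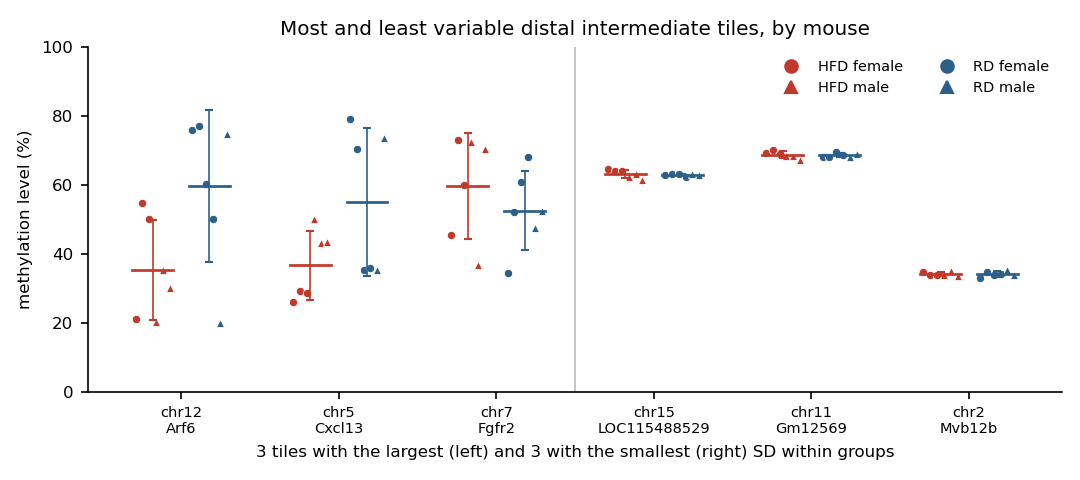
Methylation level (%) of the 12 mice in the 3 distal intermediate tiles with the largest and the 3 with the smallest SD within groups, named by chromosome and nearest protein-coding gene; circles are females, triangles males, lines and bars the mean and SD of each diet (n = 6). The RD mice of the leftmost tile run from 20.02 to 77.0%, while the 12 mice of the chromosome 15 tile lie between 61.4 and 64.5%.

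Sex moved none of the tiles past the threshold. Of the 2722, 0 were called by limma, where 0.0168% of all tested tiles were, and 131 had an unadjusted p under 0.05 (4.81%, against 5.56%). The smallest p belonged to chr2:108421003-108421042, the tile whose 3 sites had nearly the same mean, 671 kb from Mettl15, a methyltransferase of mitochondrial ribosomal RNA. Its level was 63.8 to 76.4% (median 68.0%) in the 7 females and 55.1 to 59.1% in the 5 males. No female overlapped a male, with means of 69.1% ± 4.26 and 57.5% ± 1.63 (adjusted p = 0.605). The tile at chr3:146393007-146393078 near Ssx2ip was higher in males, 80.4% ± 5.75 against 69.9% ± 2.69, and so was chr8:15519896-15519959 near Csmd1, 76.05% ± 3.59 against 67.4% ± 1.94 (adjusted p = 0.749 for both).

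Diet within females called 0 of the tiles and diet within males 0, where 0.0126 and 0.0042% of all tested tiles were called (limma). At an unadjusted p under 0.05 there were 169 (6.21%, against 5.89% of all) and 160 (5.88%, against 6.67%). The interaction of diet with sex called 0, as it did over all tested tiles (percent called 0), with 114 at an unadjusted p under 0.05 (4.19%, against 5.09%). The tile with the smallest interaction p, chr8:66604010-66604042 near Npy5r, a receptor for neuropeptide Y, averaged 83.3% in HFD females, 69.2% in RD females, 76.6% in HFD males and 84.6% in RD males. The next, chr6:132515154-132515201 near Prh1, averaged 84.7, 75.6, 75.4 and 80.7% in the same order (adjusted p = 0.880 for both). On the X chromosome, which is not among the tiles, the mean level was 53.0 to 55.3% in the females and 46.4 to 46.9% in the males, so the libraries separated by their labelled sex.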

How the data were processed

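The authors deposited 1 table with a row per CpG position and a column per mouse, in percent methylation, per the file header and its values. Trim Galore, FastQC, Bismark 0.19, limma and mm10 are named, per the submitters' processing notes, and mm10 is the GRCm38 assembly used for gene names and promoter sequences (RefSeq, GRCm38.p6). Read counts were not used here, so the coverage behind each percentage is unknown and no interval for a single value can be given. Values were present at 385299 to 417081 of the 421177 listed sites per mouse. Each column used was matched to 1 mouse by its title.

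Autosomal sites with values in all 12 columns (306534) were averaged in tiles of 500 bp with 3 or more sites, and distance was taken to the nearest end or body of any protein-coding gene. Tiles with a mean of 5 to 95% (23791) were tested with limma 3.58.1 (R 4.3.3) on log2((rate + 0.05)/(1 - rate + 0.05)), with diet and sex as terms; within-sex contrasts and the interaction came from 1 mean per group. Single sites were tested alike. P-values were two-sided and adjusted over all features tested. On simulated data, 143 of 200 of the chosen tiles shifted by 1 on this scale were recovered (71.5%), with 5 other calls, and 196 (98%) shifted by 2, with 12 other calls. These 200 tiles were shifted at once, with noise drawn independently for each tile. In the real data 7 of the 23791 tiles were called for diet, so the adjustment was stricter there. The recovered shares therefore do not give the power to find a few shifted tiles.

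Named tiles were those called or with the smallest p (10 for diet, 3 for sex, 2 for the interaction, 2 per gene list), and those extreme in spread, number of sites, distance, clustering, spread between sites, or nearest to a limit of the rule. The tiles, lists and this rule were chosen with earlier results of these data known. The labels do not say whether replicate numbers pair the mice. Across the diets, deviations of same-numbered mice of the same sex correlated with r of -0.025 to 0.018. The deviations of the 2 RD males mirror each other by construction. Same-numbered females and males of the same diet were not compared, so pairing by number cannot be judged from these values. Alternatives covered the offset, the scale, filters, tile grid, strand rows, missing values, sex term, replicate block and leaving out each mouse.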

Additional observations from a re-analysis of the deposited data

Results flagged for a closer look

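In 5 of the 120 groups of 6 mice examined (2 diets for each named tile or mean), 1 mouse lay far from the other 5 of its diet, by Dixon's test of the gap against the range. Chance alone gives about 1 in 20 such groups, or 6 here. In the tile at chr8:120206091-120206150 near Gse1, HFD female 4 had 28.7% and the other HFD mice 49.3 to 60.0%. In the tile at chr5:119502138-119502348 near Tbx3, RD male 2 had 91.8% and the other RD mice 80.01 to 84.1%. In the tile at chr8:104039652-104039706 near Cdh5, RD female 1 had 39.9% and the other RD mice 18.6 to 24.7%. In the Wnt7b tile at chr15:85615087-85615410, HFD female 3 had 27.2% and the other HFD mice 36.0 to 38.9%. In the tile of least spread, chr15:37089534-37089567, RD female 4 had 62.2% and the other RD mice 62.8 to 63.2%, a gap of under 1 point.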

How the results depend on the processing

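The count of tiles called for diet was 1, and it stayed 1 with an offset of 0.01, untransformed rates, no limit on the mean, trend and robust variances, missing values allowed, all chromosomes, a shifted grid, averaged strand rows, no sex term, and levels of 30 to 70%. It was 2 where only tiles of 20 to 80% were tested, adding the chromosome 12 tile near Nol10 (adjusted p = 0.0252, fewer tiles tested). It was 0 with tiles of 5 or more sites and 0 with tiles over 50 kb from genes, since the called tile has 4 sites and lies 27.4 kb from a gene. Leaving out 1 mouse gave 1 to 2 calls: without RD female 4 the chromosome 12 tile joined, and without RD female 2 a tile at chr1:192785186-192785258 near Hhat did (adjusted p = 0.0101, and 0.318 with all mice). The called tile had adjusted p-values of 0.00402 to 0.0334 with 1 mouse left out and 0.00178 to 0.0194 under the other alternatives. For sex the count was 0 except 1 with all chromosomes tested (the Mettl15 tile, limma, adjusted p = 0.0332, against 0.605 with autosomes only). The levels of that tile are the same in both settings. With all chromosomes, tiles of the X chromosome, where the sexes differ in level, enter the fit and its adjustment. Leaving out a mouse gave 0 to 0 for sex. For males the count was 1 where only tiles of 20 to 80% were tested and 1 with trend and robust variances, both the chromosome 6 tile, and 0 to 1 with a mouse left out. For females and the interaction it was 0 under every alternative run. The count of called single sites, 1, was 0 with an offset of 0.01, 0 with missing values allowed, 2 with no limit on the mean, 10 where only sites of 20 to 80% were tested, 6 with trend and robust variances and 13 with untransformed rates; 4 of the 10, 1 of the 6 and 6 of the 13 lay in the 12-tile group. With that group dropped from the finished fit it was 0, which was certain in advance, since the only called site lies in the group. This alternative was added after the data had been seen, as was leaving out sites at 5% or less. With a mouse left out the count of called single sites was 0 to 1. The cause of the other shifts was not tested. The difference of the diet means over all chosen tiles was -0.53 points, -0.62 to -0.43 with a mouse left out and -0.63 to -0.43 under the other alternatives. The counts of tiles whose diets did not overlap rose by over 1.5 times without HFD male 2 (24 lower in HFD), RD female 1 (22) or RD female 4 (25), and for higher ones without any mouse except HFD female 3, RD female 1 and RD female 3 (8 to 11); they were 8 and 5 at levels of 30 to 70%, 4 and 1 over 50 kb from genes, and 3 and 2 with 5 or more sites, where fewer tiles remain. A replicate block, by numbers whose meaning the labels do not give, left the diet count at 1, the sex count at 0 and the others at 0, and the unadjusted diet count at 186. No tested result of a named tile reversed its direction under any alternative run. The depth of the percentages is unknown, so how much of the spread is counting error cannot be said.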
